A study of Mus musculus with 11 samples.

Results

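The genes described here were 10 genes of T cell exhaustion, taken from the 55487 genes of the deposited expression table by their symbols. They were the receptor genes Pdcd1, Havcr2, Lag3, Tigit, Cd160 and Btla, the ectonucleotidase gene Entpd1, and the transcription factor genes Tox, Tox2 and Eomes. Each symbol matched 1 row of the table. RNA had been sequenced in bulk from 11 libraries of mouse MC38 tumours, MC38 being a colon carcinoma line that grows in mice. Tumour cells expressed either a control hairpin (shNC, genotype label WT) or a hairpin RNA directed at Fgf21, the gene of a secreted hormone (shFgf21, genotype label FGF21 Knockdown). The hairpins were in the tumour cell lines and not in the T cells, per the series' design text. T cells sorted from tumours gave 3 shNC and 2 shFgf21 libraries, and tumour samples gave 3 libraries of each kind. The study asked what tumour FGF21 does to CD8+ T cells. The mouse strain, age and time of tumour growth were not given in the labels used here.

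Several labels limit what the groups stand for. The tumour libraries are labelled as tumour tissue, as the MC38 line and as mesenchymal cells at once. The genotype label of sorted shFgf21 replicate 2 names FGF22 Knockdown, and its title put it in the shFgf21 group. Each sorted library has a title made of 2 or more tumour or animal numbers, and how material was pooled was not stated. Whether replicates stand for separate animals was not stated either, so each p-value reflects the spread among libraries and part of that may be technical. Libraries held 14944013 to 19099350 counts. Fgf21 itself had 0 counts in all 5 sorted libraries and in all 3 tumour shFgf21 libraries, and 0, 2 and 1 counts in the tumour shNC libraries, so the knockdown could not be checked at this depth.

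The labelled cell types were set against marker genes. The sorted libraries held T cell RNA, with 18 of 18 T cell identity genes detected and a summed level of 460 to 915 CPM (counts scaled to the library total) in shNC and 529 to 625 CPM in shFgf21 libraries. They also held macrophage and monocyte RNA at a higher summed level, 10911 to 13187 CPM in shNC and 16208 to 17304 CPM in shFgf21 libraries over 12 genes. Genes of MC38 cells and mesenchyme were also above the T cell sum there, at 10973 to 12270 CPM in sorted shNC and 10868 to 12770 CPM in sorted shFgf21 libraries over 10 genes, beside 16072 to 17904 and 14058 to 15571 CPM in the tumour libraries. The largest parts of that sum in sorted shNC libraries were Fn1 at 4868 and Vim at 3407 CPM. The list also holds Thy1, at 130 CPM in sorted shNC and 7.19 CPM in tumour shNC libraries. The sum therefore need not stand for tumour cell RNA alone. How much of the members' sorted levels is RNA of tumour cells was not tested. Tumour libraries were nearly free of T cell and macrophage RNA, with 1.51 to 3.14 CPM of T cell genes and 43.5 to 54.9 CPM of macrophage genes, and the CD3 epsilon gene Cd3e had 0 counts in all 6. In a bulk library, fewer cells of a type and less RNA per cell cannot be told apart.

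Exhaustion is a state that T cells enter when antigen persists, as in tumours, and in which they produce fewer cytokines and kill less. Exhausted cells carry several inhibitory receptors together, and the DNA-binding protein TOX is known as a driver of the programme in CD8+ T cells. PD-1 (Pdcd1) binds PD-L1 and PD-L2, LAG-3 (Lag3) binds MHC class II, TIGIT (Tigit) competes with CD226 for the ligand PVR, TIM-3 (Havcr2) binds galectin-9 among other ligands, and BTLA (Btla) and CD160 (Cd160) bind HVEM. CD39 (Entpd1) breaks down extracellular ATP on the path to adenosine, TOX2 (Tox2) is a relative of TOX, and EOMES (Eomes) is a T-box factor of memory, exhausted and NK cells. Several of these genes are known outside T cells too: Havcr2 and Entpd1 in macrophages, Cd160 and Eomes in NK cells, and Btla in B cells.

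Start regions of 4 members are shown because these 4 are the ones whose levels set the later comparisons apart: Entpd1 and Havcr2, which did not follow the T cell markers, Pdcd1, which had no count in tumours, and Eomes, whose tumour level came closest to its sorted level. Each runs 5′ to 3′ from 250 bases before to 50 after an annotated start, from RefSeq on GRCm38.p6, the same assembly as mm10. RefSeq windows were matched for 8 of the 10 members, with 14 starts in all. Where a gene had several, the start nearest to the 5′ end of its locus is shown. Capitals mark a match, on either strand, to 1 of 3 searched motifs: TGGAAA (a core NFAT sequence), TGANTCA (AP-1) or TCACACC (T-box).
Entpd1 chr19:40612116-40612415 (+ strand): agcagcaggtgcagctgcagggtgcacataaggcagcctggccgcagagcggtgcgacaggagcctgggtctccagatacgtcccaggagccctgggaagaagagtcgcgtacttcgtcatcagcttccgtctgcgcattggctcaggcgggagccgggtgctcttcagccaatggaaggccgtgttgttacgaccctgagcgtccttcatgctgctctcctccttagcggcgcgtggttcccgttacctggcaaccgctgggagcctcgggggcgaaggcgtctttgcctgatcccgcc
Havcr2 chr11:46454681-46454980 (+ strand): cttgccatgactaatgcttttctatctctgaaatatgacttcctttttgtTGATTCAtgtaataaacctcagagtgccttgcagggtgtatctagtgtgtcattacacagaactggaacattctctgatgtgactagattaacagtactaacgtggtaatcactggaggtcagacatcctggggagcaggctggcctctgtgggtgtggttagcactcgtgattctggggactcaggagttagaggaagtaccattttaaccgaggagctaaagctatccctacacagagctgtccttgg
Pdcd1 chr1:94052504-94052803 (- strand): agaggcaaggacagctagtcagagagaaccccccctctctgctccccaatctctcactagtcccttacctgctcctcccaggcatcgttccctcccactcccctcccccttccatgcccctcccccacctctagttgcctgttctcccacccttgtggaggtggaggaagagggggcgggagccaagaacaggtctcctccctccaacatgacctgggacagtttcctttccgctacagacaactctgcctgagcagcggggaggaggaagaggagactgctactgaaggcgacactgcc
Eomes chr9:118477939-118478238 (+ strand): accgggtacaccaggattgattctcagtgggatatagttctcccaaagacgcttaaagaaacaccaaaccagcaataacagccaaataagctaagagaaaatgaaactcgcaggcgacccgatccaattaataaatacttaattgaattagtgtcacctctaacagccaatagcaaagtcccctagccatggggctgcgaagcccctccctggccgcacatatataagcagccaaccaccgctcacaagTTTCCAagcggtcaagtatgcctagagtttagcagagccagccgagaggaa
The Entpd1 window held 23 CpG dinucleotides, the Eomes window 10, the Pdcd1 window 5 and the Havcr2 window 3, against a median of 7 over 32851 mouse windows of the same length. Entpd1 has a further annotated start, whose window at chr19:40659520-40659819 held 10 CpG dinucleotides. Which start was in use was not tested. The single AP-1 match lay in Havcr2, with its first base at position -200 from the start, and the Eomes window had the reverse form of the NFAT core across its start. Among all windows, 21.4% held TGGAAA, 7.81% held TGANTCA and 3.98% held TCACACC. These letters are a description and were not linked to any measured binding.

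Levels of different genes were compared per gene length, as FPKM, the authors' fragment counts scaled to gene length and library total. In sorted shNC libraries the members fell in 2 tiers, 5 of them at 5 FPKM or more in every library and 5 below 2 FPKM in every library. Lag3 had the highest mean at 32.7 ± 11.6 FPKM (SD, n = 3), followed by Tigit at 19.7 ± 4.73, Havcr2 at 17.7 ± 0.518, Entpd1 at 12.5 ± 0.806 and Pdcd1 at 9.61 ± 4.16 FPKM. The ranges of Lag3 and Tigit, of Tigit and Havcr2, and of Entpd1 and Pdcd1 overlapped, whereas those of Havcr2 and Entpd1 did not.

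The lower tier was Cd160, Eomes and the TOX genes with Btla. Cd160 had a mean of 1.36 ± 0.712 FPKM and Eomes 0.944 ± 0.0763 FPKM (SD, n = 3), with overlapping ranges. Tox reached 0.361 ± 0.147 FPKM and Btla 0.324 ± 0.142 FPKM, also with overlapping ranges and both below every Eomes value. Tox2 was at the limit of detection, with 3, 3 and 5 counts in the shNC libraries and 4 and 1 in the shFgf21 libraries. TOX, the factor most tied to the exhausted state, was thus measured on 34 to 70 counts a library in the 5 sorted libraries, while Lag3 had 707 to 1397. The order in shFgf21 sorted libraries was the same for the first 7 members, with Btla and Tox in exchanged places and overlapping ranges.

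**Figure D1:**
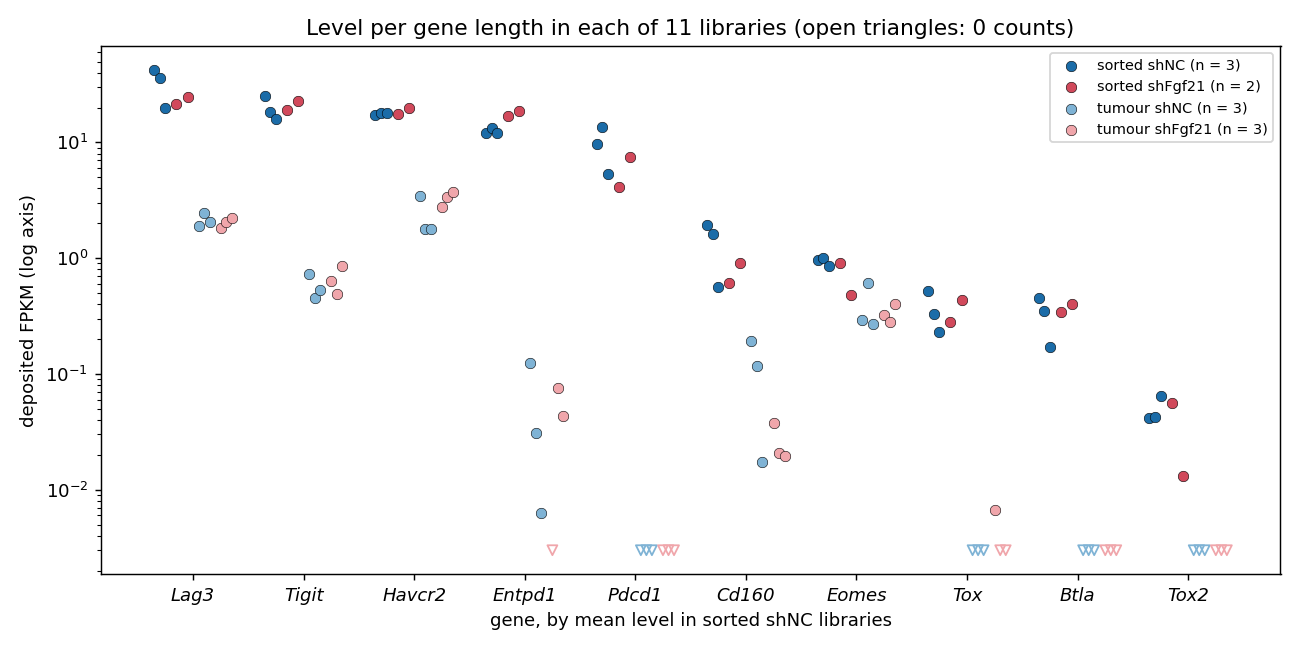
Deposited FPKM on a log axis of each of the 10 genes in each of the 11 libraries, with 1 point per library, coloured by group, and an open triangle for a library with 0 counts. Lag3, Tigit, Havcr2, Entpd1 and Pdcd1 form an upper tier in sorted libraries, and Pdcd1, Btla and Tox2 have only open triangles in tumours.

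The tumour libraries show which members are also expressed without T cells. Havcr2, Lag3, Tigit and Eomes had more than 3 counts in each of the 6 tumour libraries, and Pdcd1, Btla and Tox2 had 0 counts in all 6. Cd160, Entpd1 and Tox lay between: Cd160 had at least 1 count in all 6 libraries, Entpd1 in 5 and Tox 1 count in 1 library. A count of 0 allows up to 3 counts, which is 0.157 to 0.201 CPM in these libraries and covers counting error only.

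Havcr2, the TIM-3 gene, had 258, 168 and 166 counts in tumour shNC replicates 1, 2 and 6 and 232, 261 and 302 counts in the shFgf21 replicates. Lag3 had 61, 101 and 82 counts in tumour shNC and 67, 68 and 79 counts in tumour shFgf21 libraries. Eomes had 31, 83 and 36 counts in tumour shNC and 39, 31 and 47 counts in tumour shFgf21 libraries. Havcr2 and Lag3 exceeded the sum of all 18 T cell identity genes in each of the 6 tumour libraries, and Eomes in 5 of them, since that sum was 47, 47 and 28 counts in shNC and 32, 26 and 25 counts in shFgf21 libraries. In sorted shNC libraries the same 18 genes had 13982, 12095 and 7654 counts, beside 1397, 1167 and 712 of Lag3.

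Tigit had fewer tumour counts than these 3 genes, 10, 8 and 9 counts in shNC and 10, 7 and 13 counts in shFgf21 libraries. Entpd1 ranged from 1 to 16 counts in tumour shNC and from 0 to 10 in tumour shFgf21 libraries, against at least 1564 in any sorted library. Cd160 had 9, 7 and 1 counts in tumour shNC and 2, 1 and 1 in tumour shFgf21 libraries, so most of its signal came from 2 libraries. NK cell genes, which bear on Cd160 and Eomes, summed to 0 to 7 counts in each tumour library over 6 genes, and macrophage genes, which bear on Havcr2 and Entpd1, to 712 to 983 counts. The part of those cells in the tumour counts was not tested.

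In the GENCODE M21 annotation of mm10, 3 of the 10 genes shared exon bases with another gene. Cd160 shared 68 exon bases with Pdzk1, which had at most 3 counts, and the antisense genes over Tox and Eomes had at most 3 counts. An intron of Entpd1 holds the processed pseudogene Gm8783, which had up to 741 counts in tumours and shares no exon base with Entpd1. Lag3 lies at chr6:124904361-124911705 on the minus strand of mm10, and the abundant gene Ptms (3412 to 7036 counts in tumours) ends 1976 bases before its start on the same strand. The deposited table does not show where in Lag3 its tumour reads lie, so whether any came from Ptms transcripts was not tested. Havcr2 lies at chr11:46454935-46481255, Entpd1 at chr19:40612366-40741602, Pdcd1 at chr1:94038305-94052553 and Eomes at chr9:118478212-118486132 on mm10, all annotated as protein-coding.

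Sorted cells and tumours were then compared in the control groups, to set the size of each member's tumour level. Every one of the 9 members that could be tested was higher in sorted shNC than in tumour shNC libraries, with no overlap between groups (edgeR quasi-likelihood test, Benjamini-Hochberg adjusted over 17327 genes). In this comparison 33.4% of all genes passed an adjusted p of 0.05, 20.3% as higher in sorted cells, and 25.6% of all genes lay higher without overlap. Members that are at or near 0 in tumours passed the filter on low counts only through the sorted libraries, so they had to differ, and their number supports nothing further. Tox2 did not pass the filter.

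The smallest difference was that of Eomes, with CPM of 7.16, 7.52 and 6.38 in sorted and 2.02, 4.0 and 1.81 in tumour shNC libraries. Its log2 fold change was 1.42 ± 0.33 (edgeR SE, adjusted p = 0.00563), and its tumour FPKM was 41.3% of the sorted level. Havcr2 followed with 87.5, 93.2 and 93.4 CPM in sorted and 16.8, 8.10 and 8.36 CPM in tumour libraries. That was a log2 fold change of 3.05 ± 0.25 (edgeR SE, adjusted p = 1.86e-06) and a tumour FPKM of 13.3% of the sorted level.

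Lag3 had a log2 fold change of 4.08 ± 0.26, Tigit of 5.25 ± 0.29 and Cd160 of 3.79 ± 0.63 (edgeR SE, adjusted p = 2.08e-07, 5.58e-08 and 6.09e-04). On the FPKM scale the sorted mean was 15.4-fold, 34.6-fold and 12.4-fold the tumour mean for these genes. Entpd1 stood furthest apart among the members with tumour counts, at 8.08 ± 0.55 (adjusted p = 3.45e-07), or 230-fold by FPKM from a tumour mean that rests on 22 counts over 3 libraries, 16 of them in replicate 1. Without that library its log2 fold change was 9.49, and without tumour shNC replicate 6 it was 7.52. Cd160 was at 4.45 without tumour shNC replicate 1 and at 3.26 without replicate 6. Tigit, Cd160 and Entpd1 averaged 0.496, 0.324 and 0.444 CPM in tumour shNC libraries. These genes did not pass the filter on low counts in the tumour libraries alone, so their p-values in this comparison support nothing further.
For members with no count in tumour shNC libraries the fold is a bound, taken against 3 counts a library. Pdcd1 was at least 107-fold higher in sorted libraries by FPKM, Tox at least 18.3-fold, Btla at least 9.26-fold and Tox2 at least 1.34-fold.

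Sorted libraries from shFgf21 and shNC tumours were compared to ask whether the exhaustion genes of infiltrating cells differ with the tumour's Fgf21 knockdown. CPM given beside a fold change carry edgeR's TMM scaling factors. No member passed the test: 0 of 9 tested members had an adjusted p under 0.05, beside 0.079% of all 16454 genes (edgeR quasi-likelihood test). At an unadjusted p under 0.05 there was 1 member, Entpd1, beside 11.2% of all genes. The log2 fold changes of 5 members were above 0 and of 4 below, with a median of 0.06 beside -0.01 for all genes. Entpd1 and Havcr2 were higher in shFgf21 without overlap, as were 14.5% of all genes, and no member was lower without overlap, beside 15% of all genes. DESeq2, run on the same counts, called 1 member, Entpd1, beside 246 of all genes, or 1.5%.

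**Figure D2:**
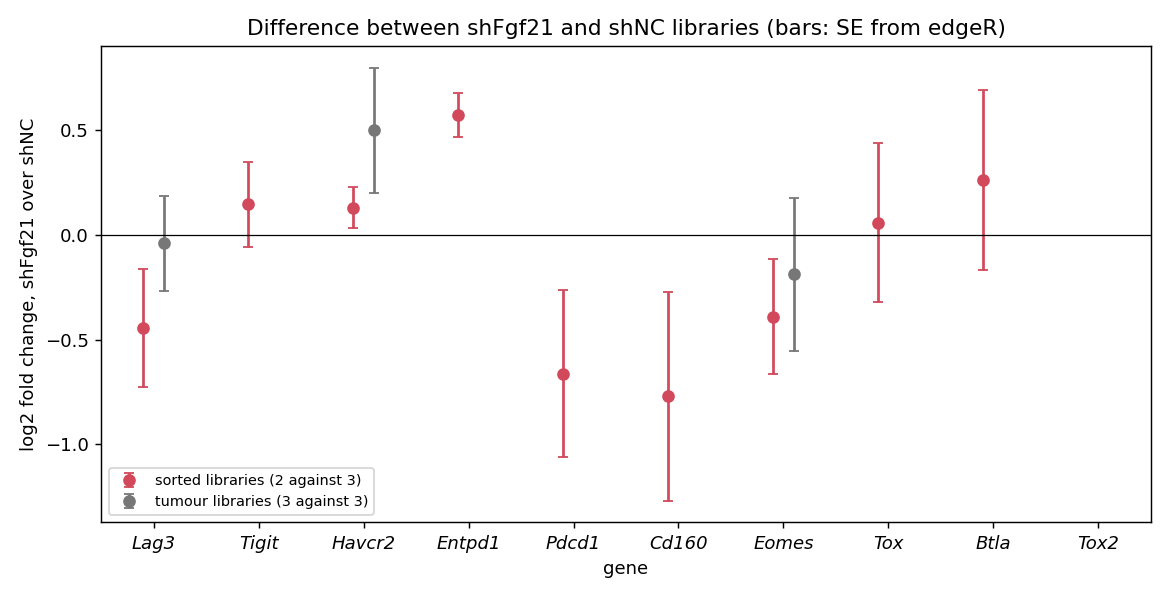
Log2 fold change of shFgf21 over shNC for each gene in sorted libraries (red) and in tumour libraries (grey), with the standard error from the edgeR fit as bars. A gene without a point did not pass the filter on low counts, and Entpd1 at 0.57 in sorted libraries is the point farthest from 0 relative to its bar.

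Among the receptors, Pdcd1 was measured at 18.4, 26.4 and 10.2 CPM in sorted shNC and at 8.13 and 14.98 CPM in sorted shFgf21 libraries. The groups overlapped, since shNC replicate 3 was below shFgf21 replicate 2. Its log2 fold change was -0.66 ± 0.40 (edgeR SE, adjusted p = 0.586), and an interval of 2 SE ran from -1.46 to 0.14. It was -1.17 without shFgf21 replicate 2 and -0.29 without shFgf21 replicate 1.
Lag3 was measured at 89.2, 78.1 and 42.2 CPM in the 3 shNC libraries and at 47.1 and 55.5 CPM in shFgf21 libraries. Its groups overlapped in the same way, through shNC replicate 3. The log2 fold change was -0.44 ± 0.28 (adjusted p = 0.605, interval of 2 SE from -1.01 to 0.12), and it was -0.23 without shNC replicate 1 and -0.71 without shNC replicate 3.

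Tigit was at 22.4, 16.8 and 14.4 CPM in the 3 shNC libraries and at 17.9 and 21.6 CPM in shFgf21 libraries, with a log2 fold change of 0.15 ± 0.20 (edgeR SE, adjusted p = 0.825). Cd160 was at 5.81, 5.02 and 1.72 CPM in the 3 shNC libraries and at 1.93 and 2.93 CPM in shFgf21 libraries, with a log2 fold change of -0.77 ± 0.50 (adjusted p = 0.607). Cd160 had the widest spread of the 6 receptors in shNC libraries, and its single low library lay below both shFgf21 values. Btla was at 2.17, 1.74 and 0.829 CPM in the 3 shNC libraries and at 1.73 and 2.04 CPM in shFgf21 libraries, with a log2 fold change of 0.26 ± 0.43 (adjusted p = 0.861). The groups of all 3 genes overlapped.

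Havcr2 had the narrowest spread of the receptors, at 82.8, 88.7 and 88.5 CPM in shNC and 88.9 and 101 CPM in shFgf21 libraries. The groups were apart by less than 1 CPM on this scale and overlapped in deposited FPKM, where the lower shFgf21 library had 17.6 and the highest shNC library 18.1. The log2 fold change was 0.13 ± 0.10 (adjusted p = 0.670).

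Entpd1 was at 99.9, 114 and 101 CPM in the shNC libraries and at 147 and 166 CPM in the shFgf21 libraries. Both shFgf21 values lay above all shNC values, and means were 105 ± 8.01 (SD, n = 3) and 156 ± 13.2 CPM (SD, n = 2). The log2 fold change of 0.57 ± 0.10 is a 1.49-fold difference, with an unadjusted p of 6.45e-04 in the edgeR model and an adjusted p of 0.149, so it missed the threshold. It ranked 71 of 16454 genes by p. With DESeq2 on the same libraries its log2 fold change was 0.58 and its adjusted p 0.00147, under the threshold, while the range of adjusted p over 11 alternatives was 0.00147 to 0.959. Leaving out each library in turn gave log2 fold changes of 0.49 to 0.66.

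Of the transcription factors, Tox was at 4.47, 2.88 and 2.01 CPM in the 3 shNC libraries and at 2.53 and 3.95 CPM in shFgf21 libraries. The shFgf21 values lay within the shNC range, and the log2 fold change was 0.06 ± 0.38 (edgeR SE, adjusted p = 0.970). Eomes was at 6.77, 7.16 and 6.04 CPM in the 3 shNC libraries and at 6.60 and 3.57 CPM in shFgf21 libraries, so that shFgf21 replicate 2 was the lowest and replicate 1 lay within the shNC range. Its log2 fold change was -0.39 ± 0.27 (adjusted p = 0.642). It was -0.011 without shFgf21 replicate 2 and -0.89 without shFgf21 replicate 1, so the value rests on 1 library. Tox2, with 1 to 5 counts, was not tested.

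The make-up of the sorted libraries also differed, and some members had the same highest and lowest library as a marker sum. Lag3, Tigit, Cd160, Tox and Btla were each highest in sorted shNC replicate 1 and lowest in sorted shNC replicate 3, and so was the summed T cell identity level, at 915 and 460 CPM. Entpd1 and Havcr2 were each highest in shFgf21 replicate 2 and lowest in shNC replicate 1, and so was the summed macrophage level, at 17304 and 10911 CPM. Lag3 and Cd160 had the same order as the T cell sum throughout. Between the extremes, Tigit, Tox and Btla differed in order from the T cell sum, and Entpd1 and Havcr2 from the macrophage sum. By library total, shFgf21 replicate 1 was second highest in the macrophage sum and in Entpd1, and second lowest in Havcr2. Pdcd1, Eomes and Tox2 shared the highest and lowest libraries of neither sum. By group, the T cell sum was 728 ± 238 CPM in shNC and 577 ± 67.8 CPM in shFgf21 libraries, and the macrophage sum was 12207 ± 1171 and 16756 ± 775 CPM (SD, n = 3 and n = 2). Of the 18 T cell genes 13 had log2 fold changes below 0 and 5 above, with a median of -0.24. The adjusted threshold was passed by 0 of them. Cd8a was at -0.68 and Cd8b1 at -0.91 with overlapping groups. Cd4 was at 0.34, higher without overlap, as were 14.5% of all genes. The T cell sum, on which the values per T cell count rest, joins these genes. Whether the mix of T cells differed between groups was not tested. All 12 macrophage genes had log2 fold changes above 0, beside 48.2% of all genes, with a median of 0.54. Without overlap 9 of them were higher, beside 14.5% of all genes. In the edgeR test 8 had an unadjusted p under 0.05, beside 11.2% of all genes, and 0 passed the adjusted threshold. A fit with the summed T cell level as a covariate called 0 of 9 members too. Its log2 fold change for Lag3 was -0.08 (edgeR adjusted p = 0.868) in place of -0.44, with Pdcd1 at -0.27 (adjusted p = 0.807) in place of -0.66 and Cd160 at -0.11 (adjusted p = 0.925) in place of -0.77. Tox was at 0.41 in place of 0.06, Btla at 0.73 in place of 0.26 and Tigit at 0.32 in place of 0.15 (edgeR adjusted p = 0.712, 0.568 and 0.602). Entpd1 at 0.60, Havcr2 at 0.12 and Eomes at -0.38 moved by less than 0.05. No fit with the macrophage level as a covariate was run, and values per macrophage count are given further on.

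Markers of other cells that carry members were also summed. NK cell genes, which bear on Cd160 and Eomes, summed in sorted cells to 58.2 ± 14.0 CPM with shNC (SD, n = 3) and to 27.1 ± 5.94 CPM with shFgf21 (SD, n = 2), with log2 fold changes below 0 for 5 of 6 genes and 0 of 6 past the threshold. The NK cell sums of the groups did not overlap. By gene, 5 of the 6 were lower without overlap, beside 15% of all genes. The largest parts of the sum in shNC libraries were Gzma at 22.1 and Klrd1 at 18.8 CPM, while Ncr1 was at 1.79 CPM. How much of this sum came from NK cells was not tested. B cell genes, which bear on Btla, summed to 2.29 to 6.16 CPM in shNC and 2.88 to 3.28 CPM in shFgf21 libraries. Regulatory T cell genes, which bear on Tigit and Entpd1, summed to 102 to 156 and 124 to 153 CPM. The shFgf21 sums of both lists lay inside the shNC range. Of the 6 regulatory T cell genes, 4 had log2 fold changes above 0 and 2 below, and 0 passed the threshold. Only Foxp3 was apart, higher in both shFgf21 libraries than in any shNC library, as were 14.5% of all genes. Its log2 fold change was 0.28 ± 0.13 (edgeR SE, adjusted p = 0.485). Any share of regulatory T cells in the differences of Tigit and Entpd1 was not tested. The part of NK cell RNA in the differences of Cd160 and Eomes was not tested.

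**Figure D3:**
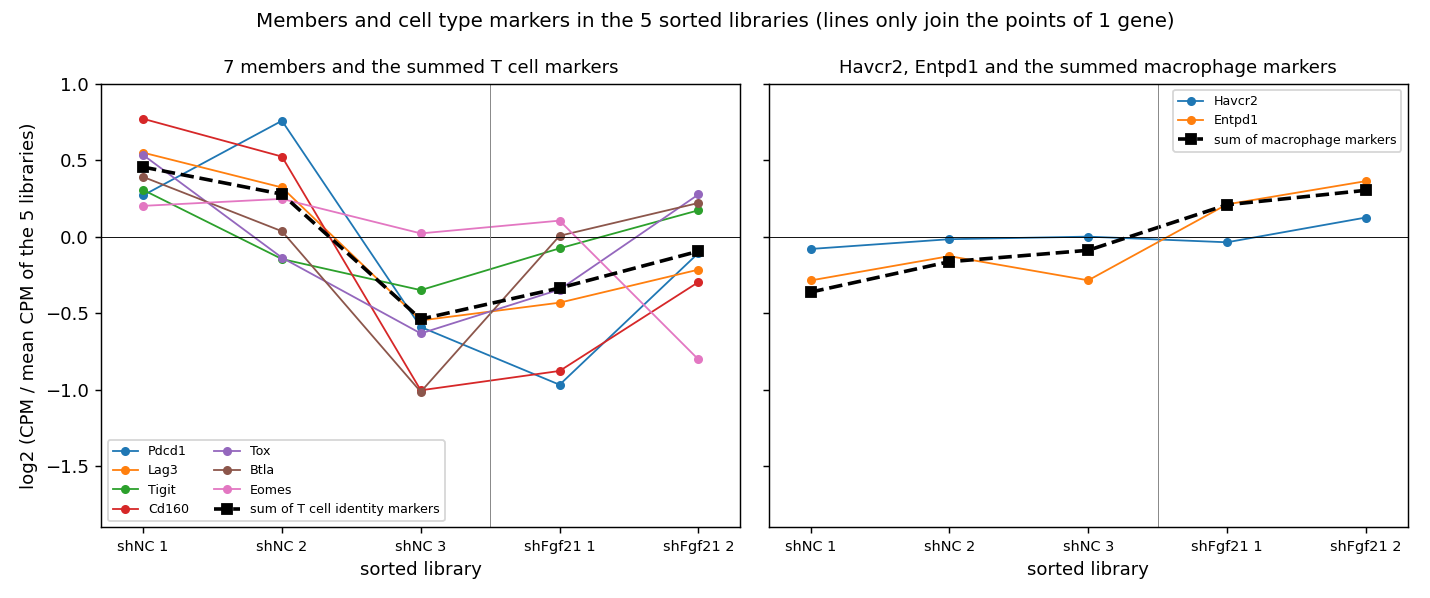
Log2 of each gene's CPM over its mean in the 5 sorted libraries, with the summed T cell identity markers (left) or macrophage markers (right) as black squares. On the left the summed markers and most members are highest in shNC 1 and lowest in shNC 3, and on the right Entpd1 lies close to the macrophage sum in all 5 libraries.

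The spread between the 3 shNC sorted libraries differed by member when it was taken per T cell count. The coefficient of variation of Lag3 was 35.6% as a level and 3.57% per T cell identity count, and that of Btla 43.9% and 14.1%. For Tox it was 40.9% and 16.9%, for Pdcd1 43.3% and 25.6%, and for Cd160 52.2% and 27.1%. Havcr2 went the other way, from 2.93% as a level to 41.5% per T cell count, as did Entpd1 from 6.46% to 36.3% and Eomes from 8.09% to 30.4%. Per macrophage count the coefficient was 6.93% for Havcr2 and 9.91% for Entpd1, in both above that of the level. Of the 10 members, 6 varied least per T cell count, 3 as a level and 1, Tox2, per macrophage count, and with 3 libraries these values are descriptions.

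Member counts were then set against the summed T cell identity counts, and an exact permutation test over libraries was run for each of the 10 members. With 3 against 2 libraries there are 10 arrangements, and the smallest two-sided p is 0.2, so no member could pass 0.05. Per 100 T cell counts, 5 members were higher and 5 lower in shFgf21 libraries, 3 of them higher and 1 lower without overlap. On the same scale 5.44% of the 16454 tested genes were higher and 2.39% lower without overlap.
Lag3 was 9.99, 9.65 and 9.30 per 100 T cell counts in shNC and 8.76 and 8.61 in shFgf21 libraries, means of 9.65 ± 0.345 and 8.69 ± 0.104 (SD, exact permutation p = 0.2). Both shFgf21 values lay below all shNC values, by a log2 difference of -0.15. With the 4 Cd3 chains alone as the reference the log2 difference was 0.07 and the groups overlapped. That change of reference moves every member by the same 0.22, which is larger than the difference of Lag3.

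Tigit per 100 T cell counts was 2.51, 2.08 and 3.17 in shNC and 3.33 and 3.35 in shFgf21 libraries, higher without overlap (exact permutation p = 0.2). Btla was 0.243, 0.215 and 0.183 in shNC and 0.322 and 0.316 in shFgf21 libraries, also higher without overlap, on 14 to 34 counts. Pdcd1 was 2.06, 3.27 and 2.26 in shNC and 1.51 and 2.32 in shFgf21 libraries, and its groups overlapped. Tox at 0.433 ± 0.0732 and 0.542 ± 0.101, Cd160 at 0.550 ± 0.149 and 0.407 ± 0.0676, and Eomes at 0.992 ± 0.302 and 0.890 ± 0.476 (shNC and shFgf21 means, SD, n = 3 and n = 2) overlapped as well. Adjusted over the 10 members, every exact permutation p was at least 0.5.

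Entpd1 and Havcr2 were set against both T cell and macrophage counts. Entpd1 per 100 T cell counts was 11.2, 14.1 and 22.3 in shNC and 27.3 and 25.7 in shFgf21 libraries, a log2 difference of 0.80 without overlap (exact permutation p = 0.2). Per 100 macrophage counts it was 0.876 ± 0.0868 in shNC and 0.910 ± 0.0255 in shFgf21 libraries (SD), a log2 difference of 0.06 with overlapping groups (exact permutation p = 1.0). For Havcr2 the log2 difference per T cell count was 0.36 with overlapping groups (exact permutation p = 0.6). Havcr2 per 100 macrophage counts was 0.722 ± 0.0501 in shNC and 0.552 ± 0.0182 in shFgf21 libraries, lower without overlap (log2 difference -0.38), where the log2 fold change of its level was 0.13. Going from the T cell to the macrophage reference moves the log2 difference of every member by the same -0.74, so the change is not particular to Entpd1 or Havcr2. The macrophage reference was chosen after seeing the data.

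**Figure D4:**
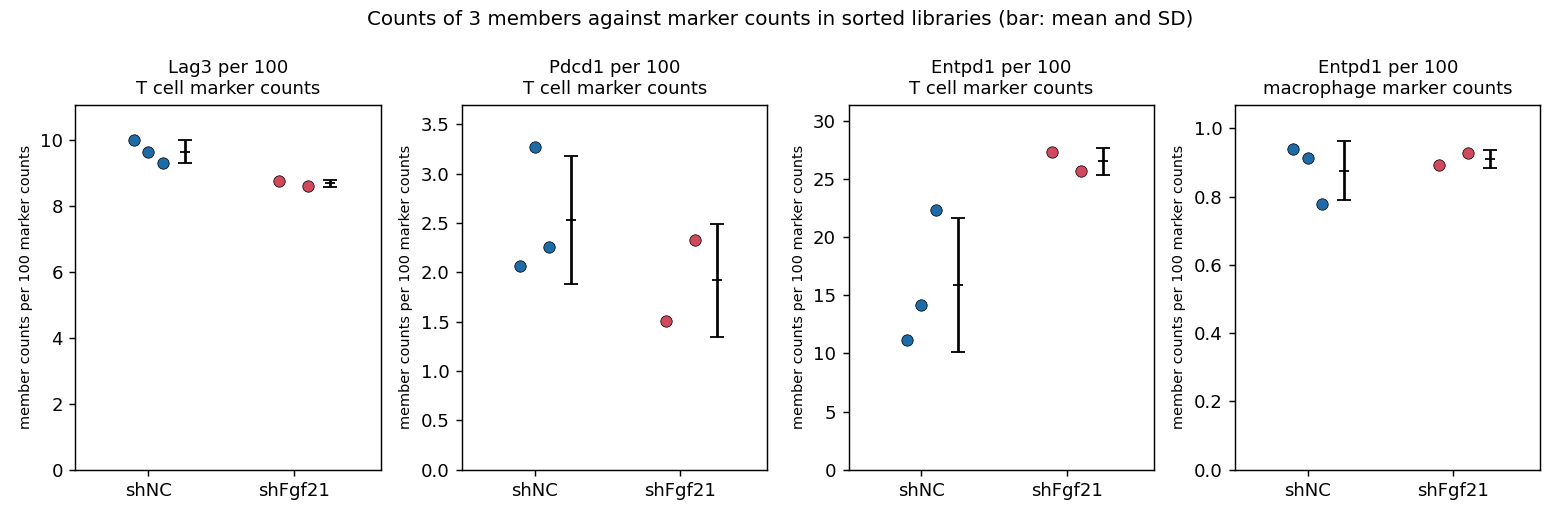
Counts of Lag3, Pdcd1 and Entpd1 per 100 counts of T cell identity markers, and of Entpd1 per 100 counts of macrophage markers, in each sorted library, with the mean and SD of the 3 shNC and 2 shFgf21 libraries as bars. Lag3 is slightly lower in both shFgf21 libraries, and the gap of Entpd1 in the third panel is not seen in the fourth, where the groups overlap.

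In tumours 3 members passed the filter on low counts and could be tested for the knockdown, and 0 were called, beside 0.0334% of 14950 genes (edgeR quasi-likelihood test). No member had an unadjusted p under 0.05 either, beside 6.22% of all genes, and DESeq2 called none of the 3. The groups of all 3 overlapped, while 11.6% of all genes did not overlap.
Havcr2 was at 17.8, 8.44 and 8.83 CPM in tumour shNC and at 14.0, 17.0 and 18.4 CPM in tumour shFgf21 libraries. The groups overlapped through shNC replicate 1, and the log2 fold change was 0.50 ± 0.30 (edgeR SE, adjusted p = 0.876). It was 0.93 without shNC replicate 1, 0.32 without shNC replicate 2, and 0.82 with limma voom.
Lag3 was at 4.21, 5.08 and 4.36 CPM in the 3 shNC libraries and at 4.05, 4.43 and 4.82 CPM in shFgf21 libraries, nearly the same range, with a log2 fold change of -0.04 ± 0.23 (adjusted p = 0.990). Eomes was at 2.14, 4.17 and 1.92 CPM in the 3 shNC libraries and at 2.36, 2.02 and 2.87 CPM in shFgf21 libraries, with a log2 fold change of -0.19 ± 0.37 (adjusted p = 0.968). Its highest value was that of shNC replicate 2, and without that library the log2 fold change was 0.26.

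For the same 3 genes, an interaction term tested whether the knockdown difference was unequal in sorted cells and in tumours. None passed, beside 0.00577% of 17327 genes: the log2 difference of fold changes was -0.36 ± 0.35 for Havcr2, -0.39 ± 0.36 for Lag3 and -0.18 ± 0.49 for Eomes (SE, edgeR adjusted p = 0.99997 for each).

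Genes that work with the members were read from 4 lists: ligands, competing or partner receptors and enzymes, signalling and transcription partners, and the TOX family. In sorted cells 0 of the tested genes passed in any list. Without overlap, 2 ligand genes were higher and 1 lower, and 2 competing receptors and enzymes were higher and 2 lower. Of the signalling and transcription partners 3 were higher and 3 lower without overlap, and of the TOX family 1 was higher and 0 lower. Among all genes 14.5% were higher and 15% lower without overlap. Of the 10 tested ligand genes 7 had log2 fold changes above 0 and 3 below, with a median of 0.01, beside -0.01 for all genes. Cd274, which encodes the PD-1 ligand PD-L1, was at 312 ± 62.0 CPM in sorted shNC and 338 ± 21.2 CPM in shFgf21 libraries (SD), a log2 fold change of 0.12 ± 0.16 (edgeR SE, adjusted p = 0.816). Pvr, the ligand of TIGIT, was at 89.9 ± 9.16 and 102 ± 1.72 CPM without overlap (edgeR adjusted p = 0.594). Lgals9, the gene of galectin-9, was at 126 CPM in both groups.

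Of 11 competing receptors and enzymes, 4 had log2 fold changes above 0 and 7 below, with a median of -0.19. Cd96, a further receptor for PVR, was at 13.7 ± 5.36 and 8.65 ± 1.05 CPM (log2 fold change -0.66 ± 0.33, adjusted p = 0.508). Cd244a, the gene of the receptor 2B4, was at 10.95 ± 0.863 and 7.34 ± 0.829 CPM without overlap (-0.58 ± 0.17, adjusted p = 0.307). Ctla4, the inhibitory receptor for CD80 and CD86, was at 33.2 ± 5.39 and 38.2 ± 6.31 CPM, and Nt5e, the gene of CD73, which follows CD39 on the path to adenosine, at 59.8 ± 10.4 and 55.5 ± 4.41 CPM, neither past the threshold. Vsir, the gene of the inhibitory protein VISTA, was at 113 ± 14.0 and 137 ± 13.0 CPM without overlap (adjusted p = 0.456).

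Of 16 signalling and transcription partners, 11 were above 0 and 5 below, with a median of 0.10. Nr4a1, a nuclear receptor induced by T cell receptor signalling, was at 436 ± 66.7 and 575 ± 142 CPM (adjusted p = 0.462). Ptpn6 and Ptpn11, the genes of the phosphatases SHP-1 and SHP-2 that inhibitory receptors recruit, had log2 fold changes of 0.19 ± 0.12 and 0.14 ± 0.08. The groups of Ptpn11 did not overlap, and those of Ptpn6 did. In the TOX family, Tox4 was at 87.0 ± 9.53 and 96.3 ± 1.04 CPM without overlap (edgeR adjusted p = 0.675). Tox3 was at 2.99 ± 0.565 and 2.61 ± 0.358 CPM with overlapping groups (edgeR adjusted p = 0.827).

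The same lists in tumours also held 0 genes past the threshold, among 9 ligand, 3 competing receptor, 13 signalling and 2 TOX family genes tested. Cd274 was at 37.0 ± 16.2 CPM in tumour shNC and 61.7 ± 15.7 CPM in tumour shFgf21 libraries, a log2 fold change of 0.74 ± 0.31 (adjusted p = 0.795).
Between sorted shNC and tumour shNC libraries, all 11 competing receptors and enzymes passed as higher in sorted cells, beside 20.3% of all genes. Of these 11, Cd226, Pvrig, Ctla4, Cd101 and Slamf6 had 0 counts in tumour shNC libraries and Cd96 and Cd244a were under 0.1 CPM, so they passed the filter only through the sorted libraries and had to differ. Cd200, at 0.28 CPM in tumour shNC libraries, did not pass the filter in tumours alone either. Of the ligand genes 5 of 10 were higher and 1 lower. Pdcd1lg2, among those 5, had 0 counts in tumour libraries, so it too had to differ. Hmgb1, Pvr and Nectin2, ligand genes of TIM-3 or TIGIT, did not pass in that comparison. The TOX family split: Tox4 was higher in sorted cells and Tox3 was lower, at 3.16 ± 0.604 CPM in sorted and 7.14 ± 1.12 CPM in tumour libraries (log2 fold change -1.18 ± 0.26, adjusted p = 0.00467). Tox was also higher in sorted cells. With 0 counts in tumour shNC libraries, Tox passed the filter only through the sorted libraries and had to differ.

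Genes with the most similar pattern were sought for each member over the 11 libraries, by the root mean square difference of log2 CPM centred on each gene's mean, among 14782 genes. The 11 points share 2 kinds of sample, and no p is given. Nearest to Pdcd1 were Nrgn at 0.18, Klrk1 at 0.23 and Skap1 at 0.24, and nearest to Lag3 were Sh2d1a at 0.24, Ly6c2 at 0.26 and Tafa3 at 0.27. Nearest to Havcr2 were Ctsd, a lysosomal protease gene, at 0.26, Cd274 at 0.27 and Rab8b at 0.27. Entpd1 had no neighbour closer than Pygl at 0.45, followed by Frmd4b at 0.45 and Il1rn, the gene of the interleukin-1 receptor antagonist, at 0.47. Tigit and Tox shared Xlr4c and Ildr1 among their nearest 3, and Btla and Lag3 shared Sh2d1a. The nearest genes were Dnah8, Slc52a3 and Icam2 for Cd160, and Cln6, Zfpm1 and Rilp for Eomes. Those of Tox2 were Nek6, Esrra and Impdh1, from a gene with 0 to 5 counts in any library.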

How the data were processed

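For 11 libraries the authors deposited counts (whole numbers for each gene) and FPKM. The submitters' processing notes name the mm10 genome; no source used here gives the aligner, counting program, annotation or strand setting. Deposited FPKM equal count over a fixed gene length and library total, so they were used only for levels per length. Groups came from sample titles. The counts were tested with edgeR 4.0.16 in R 4.3.3 (filterByExpr, TMM, quasi-likelihood F-test, two-sided, Benjamini-Hochberg over all genes tested, threshold 0.05). Knockdown was tested within each kind of sample, and sorted against tumour and the interaction in 1 fit of 4 groups. Standard errors are the log2 fold change over the square root of F. CPM carry the TMM factors of the fit; summed marker CPM are per library total. The test was run first on simulated data. Alternatives were RLE factors, no filter, DESeq2 1.42.0, limma 3.58.1 voom, all groups in 1 fit, a T cell covariate, a replicate block and leaving out each library. The text names the members, Fgf21, up to 6 genes per pathway list with the highest sorted shNC level or past the threshold, and the 3 genes nearest each member (prior count 2, mean of at least 1 CPM). Members and lists were chosen with earlier results of these data known.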

Additional observations from a re-analysis of the deposited data

How the results depend on the processing

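In the knockdown and interaction comparisons 0 members were called under every alternative except DESeq2 in sorted cells, which called 1, Entpd1 (log2 fold change 0.58, adjusted p = 0.00147; range over its alternatives 0.00147 to 0.959). Calls over all genes moved more. In sorted cells the 13 calls became 1 without a filter, 246 with DESeq2, 1 with all 4 groups in 1 fit, 21 with the T cell covariate and 0 to 34 when each library was left out: 28 without shNC replicate 1, 34 without shNC replicate 3, 1 without shFgf21 replicate 1 and 0 without shFgf21 replicate 2. In tumours the 5 calls became 115 with DESeq2, 26 with all 4 groups in 1 fit, 21 with voom and 0 to 8 when each library was left out: 8 without shNC replicate 1, 0 without shNC replicate 6, 0 without shFgf21 replicate 3. The interaction went from 1 call to 4 without a filter, 33 with DESeq2 and 0 to 4 when each library was left out: 0 without either sorted shFgf21 library and 4 without tumour shNC replicate 1. The causes were not tested. Sorted against tumour gave 4542 to 5781 calls without each library, with 9 of 9 members called, and 10 of 10 without a filter.

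A fit with the title number as a replicate block in tumours called 131 genes and 0 members. Only numbers 1 and 2 occur in both groups, so the libraries numbered 3 and 6 added nothing to the knockdown difference in that fit. Same-numbered libraries had deviations correlated at 0.15 for number 1 and -0.16 for number 2. Pairs with unlike numbers ranged from -0.24 to 0.16. With 2 shared numbers and 3 libraries a group, these values cannot show whether the samples were paired.

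Uncalled directions turned as follows. With voom in tumours Lag3 was 0.044 and Eomes 0.16. Leaving out each library gave Tox -0.30 to 0.41 and Btla -0.055 to 0.56 in sorted cells, Lag3 -0.10 to 0.057 and Eomes -0.39 to 0.26 in tumours, and Eomes -0.69 to 0.18 in the interaction. Per T cell count it gave Tox2 -1.72 to 0.60 and Eomes -0.80 to 0.35. Changing the reference from T cell counts moves every member alike, by 0.22 for Cd3 chains and -0.74 for macrophages, which turned Lag3 to 0.069 and Havcr2 to -0.38, Tigit to -0.35, Tox to -0.42 and Btla to -0.15. Ranked by CPM in place of FPKM, 3 of 10 members kept their place. With 2 shFgf21 sorted libraries, and with Tox, Btla and Cd160 under 100 counts a library, differences of the size seen between shNC replicates could not be told from 0.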

Other observations

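The gene length implied by the deposited FPKM equals the merged exon length in GENCODE M21 for 2 of the 10 members, Pdcd1 and Tigit. For Eomes the implied length was 7142 bases against 4155 merged exon bases, for Entpd1 8517 against 5580 and for Havcr2 4963 against 2721. Lag3 was closer, at 2163 against 2109 bases. Levels per length of Eomes, Entpd1 and Havcr2 would therefore be higher relative to Pdcd1 and Tigit with that annotation. Differences between libraries of 1 gene are not touched by its length.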
